A study of Mus musculus with 2 samples.

Results

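The glycolytic enzymes described here are 10 genes, Hk1, Hk2, Gpi1, Pfkl, Aldoa, Tpi1, Gapdh, Pgk1, Eno1 and Pkm, chosen by symbol from the array's annotation, in which an older symbol counts under its current gene ID. Of these 10 genes, 6 had a probe of their own, with 1 probe each: Hk1, Hk2, Aldoa, Tpi1, Gapdh and Pgk1. No probe in the annotation used here carried Gpi1, Pfkl, Eno1 or Pkm, so these 4 have no value. The 6 genes stand among 13840 named genes on an array of 33012 probes.

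The values come from 2 one-colour arrays of mouse lung, 1 per genotype, each hybridised with pooled RNA of the left lobes of 3 animals. Wild-type animals were FVB/N males, and the other group was Rosa26-Foxm1, a transgenic line carrying Foxm1 and named for the Rosa26 promoter, which is active in most cell types; strain, sex and age of that group, and the age of the wild type, are absent from the labels used here. Both groups had been given the carcinogen 3-methylcholanthrene once (15 µg per g body weight, intraperitoneally) and then 6 weekly doses of the tumour promoter butylated hydroxytoluene (150 µg/g, then 200 µg/g), and lungs were taken 12 weeks after the carcinogen. No untreated lung and no second array of either genotype enters the comparison, so no test between genotypes was possible and every difference below compares 2 pools.

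Glycolysis splits glucose into pyruvate in the cytosol. An investment stage, from hexokinase to aldolase and triosephosphate isomerase, consumes ATP, and a payoff stage, from glyceraldehyde-3-phosphate dehydrogenase to pyruvate kinase, returns ATP and NADH. Proliferating cells, activated macrophages and many tumours take up more glucose and release lactate, and hypoxia-inducible factors and Myc are known to raise transcription of most of the enzymes.

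Intensities were quantile normalised between the arrays, and values under the median of an array were set to that floor, a normalised intensity of 1.00. A gene was called measured if its probe exceeded the floor on at least 1 array, which held for 9518 genes. Differences are log2 of Rosa26-Foxm1 minus wild type. Where a gene was below the floor on 1 array its difference is a lower bound in size, and counts past 1.5-fold, medians and orders within a list use that bound. The only error these arrays offer is the probe SD, the error of 1 probe's log2 difference, estimated from pairs of probes for the same gene. It was 0.31 over 317 genes and 0.23 for the brighter pairs, those above an intensity of 10.5. It leaves out variation between mice. Lung markers were present on both arrays, for example the surfactant gene Sftpc at 1228 (wild type) and 856 (Rosa26-Foxm1). The Foxm1 probe stood near the floor on both, at 1.13 and 1.23, and its match to the transgene was not checked. Throughout, a pair of intensities gives wild type first and Rosa26-Foxm1 second.

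None of the 6 measured enzymes differed by 1.5-fold between the genotypes. Of all measured genes 15.5% did, 7.07% upward and 8.45% downward. With only 6 genes, a count of none cannot be told apart from that share. All members but Tpi1 also stood above the 75th percentile of intensity. Measured genes above it had a narrower middle 50%, -0.28 to 0.18, than all measured genes. The share of these brighter genes past 1.5-fold was not counted. Hk2, Gapdh and Aldoa were above 0 and Hk1, Pgk1 and Tpi1 below, against 43.9% of all measured genes above 0. The median of the 6 log2 differences was -0.01, beside -0.06 over all measured genes. The members ran from -0.26 for Hk1 to 0.33 for Hk2, a range of 0.59, and 4 of the 6 lay in the middle 50% of all measured genes (-0.30 to 0.22). With 1 probe per enzyme, no member has a second probe to set beside its value.

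**Figure D1:**
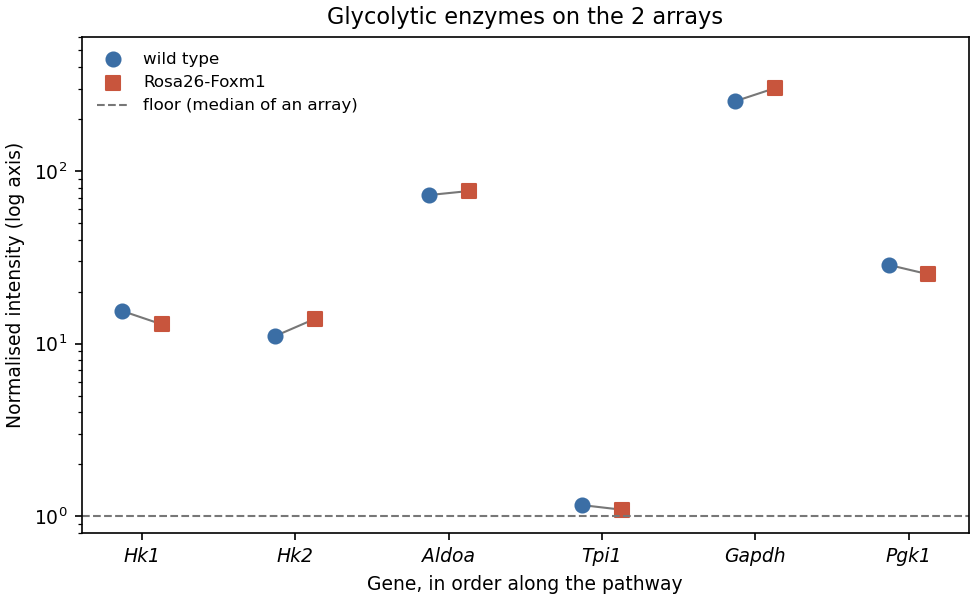
Normalised intensity (log axis) of the 6 measured glycolytic enzymes in wild-type lung (circles) and Rosa26-Foxm1 lung (squares), 1 array each, in pathway order; the dashed line is the floor. Lines slope up for Hk2, Aldoa and Gapdh and down for Hk1, Tpi1 and Pgk1, and each pair is less than 1.5-fold apart.

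Hexokinases phosphorylate glucose and so trap it in the cell. Hk1 is the form made in most tissues, and Hk2 is the inducible form, typical of muscle, fat and tumour cells. Normalised intensities for Hk1 were 15.5 and 12.9, that is 1.20-fold lower in the transgenic pool (-0.26 on the log2 scale). For Hk2 they were 11.1 and 13.9, which is 1.26-fold higher (0.33). The genes therefore lay on opposite sides of 0, and they were the lowest and the highest of the 6 members. The Hk2 value exceeded the probe SD of 0.31, the only member to do so, while the Hk1 value exceeded only the probe SD of brighter pairs. Between them the difference was 0.59, against an SD of 0.33 for the difference between 2 brighter probes. That contrast is set by the extremes of the 6 values and is a description. With loess the contrast was 0.59. Median scaling, the deposited values and scaling to reference genes differ by a constant per array. They therefore gave the same contrast, 0.58, by construction, which is no check on it. Each gene alone did depend on the scaling: with scaling to reference genes Hk2 was at 0.02 and Hk1 at -0.56. In all, 59.8% of measured genes had a smaller absolute difference than Hk2.

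The stretches upstream of the hexokinase starts are printed because these paralogs lay on opposite sides of 0, and that of Gapdh because it was the next highest member and is a common reference gene. They are the 250 bases before the start on the gene's strand, from RefSeq on GRCm38.p6. Capitals mark ACGTG or GCGTG on either strand, the core forms of the hypoxia response element. The Hk1 starts, both on the minus strand, have their windows at chr10:62379909-62380158 and chr10:62340422-62340671. The Hk2 window is chr6:82774455-82774704 and the Gapdh window chr6:125165774-125166023, also on the minus strand.
Hk1 first start: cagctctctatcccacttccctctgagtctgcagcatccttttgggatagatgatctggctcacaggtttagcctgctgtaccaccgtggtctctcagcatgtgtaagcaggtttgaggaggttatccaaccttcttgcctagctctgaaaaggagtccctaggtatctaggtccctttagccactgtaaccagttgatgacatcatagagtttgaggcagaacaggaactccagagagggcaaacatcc
Hk1 second start: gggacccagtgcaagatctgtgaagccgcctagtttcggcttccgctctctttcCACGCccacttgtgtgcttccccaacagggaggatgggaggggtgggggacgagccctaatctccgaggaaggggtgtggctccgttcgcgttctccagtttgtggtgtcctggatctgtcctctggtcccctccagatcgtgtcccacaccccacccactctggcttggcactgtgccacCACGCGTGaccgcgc
Hk2: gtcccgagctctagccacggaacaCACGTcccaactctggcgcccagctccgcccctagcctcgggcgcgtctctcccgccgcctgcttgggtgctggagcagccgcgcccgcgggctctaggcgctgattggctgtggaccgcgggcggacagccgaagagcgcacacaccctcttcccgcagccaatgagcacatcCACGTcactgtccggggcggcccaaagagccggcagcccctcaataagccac
Gapdh: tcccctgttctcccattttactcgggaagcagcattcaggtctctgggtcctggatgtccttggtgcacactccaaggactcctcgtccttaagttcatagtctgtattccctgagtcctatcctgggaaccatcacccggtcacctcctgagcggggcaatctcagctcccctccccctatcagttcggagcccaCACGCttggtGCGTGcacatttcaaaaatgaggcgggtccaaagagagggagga

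Hk2 held 2 matches to ACGTG, Gapdh 2 to GCGTG, and the second Hk1 start 3 to GCGTG, of which the last 2 overlap on opposite strands. The first Hk1 start held none. Over the 6 measured enzymes, 6 of 9 such windows held at least 1 match (66.7%), against 38.6% of all 32851 windows in the table, with a pair of the Aldoa windows overlapping. Among the members above 0, Hk2, Gapdh and Aldoa held matches, with 1 in each of the overlapping Aldoa windows. Among those below 0, Pgk1, at 2 matches, and Hk1 held matches, and Tpi1 held none. Whether matches go with direction was not tested. Of the genes without a probe, Eno1, Pfkl and Pkm held a match and Gpi1 did not. Neither the E-box CACGTG, which contains ACGTG on both strands, nor the forkhead core TAAACA was found in any window of the 10 genes; these occur in 6.02% and 12.0% of all windows. GC content was 49.6% and 62.8% at the Hk1 starts, 69.6% at Hk2 and 55.6% at Gapdh, and was not matched in these shares. A match of letters is not evidence of binding.

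Aldolase A, encoded by Aldoa, cleaves fructose 1,6-bisphosphate into triose phosphates. Its intensities were 72.5 and 76.5, so it was 1.06-fold higher in the transgenic pool (0.08), which is under the probe SD. Its sign depended on the scaling: it was 0.17 with median scaling and -0.14 with scaling to reference genes. Triosephosphate isomerase, encoded by Tpi1, interconverts those products. Its intensities were 1.16 and 1.09, or 1.06-fold lower (-0.09). Both values sat just over the floor, so Tpi1 gives little information. With the floor at the 75th percentile it was no longer measured.

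Gapdh encodes glyceraldehyde-3-phosphate dehydrogenase, which makes NADH in the first reaction of the payoff stage and whose transcript is widely used as a loading reference. Its intensities were 254 and 302, or 1.19-fold higher in the transgenic pool (0.25). That exceeded the probe SD of brighter pairs and not the one over all pairs. Its deposited intensities were 237 and 324, so Gapdh was at 0.45 with the deposited values and 0.31 with loess, and at 0.14 with scaling to reference genes. Pgk1 encodes phosphoglycerate kinase, the next enzyme and the first to return ATP. Its intensities were 28.6 and 25.2, or 1.13-fold lower (-0.18), under either probe SD. It stayed below 0 under every scaling, from -0.44 to -0.13. These consecutive enzymes thus lay on opposite sides of 0, 0.43 apart.

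Because Gapdh and Pgk1 also serve as reference genes, they were set beside 11 other measured reference genes, among them Actb, Hprt and B2m. Their median difference was 0.36 and their range -0.45 (Sdha) to 0.57 (Gusb). Gapdh was higher than 4 of them and lower than 7. That order depended on the scaling and on the probe. With median scaling Gapdh, at 0.45, lay above Hprt (0.43), Rpl13a (0.42) and Eef1a1 (0.18), which exceeded it under quantile normalisation. The 2 probes of Eef1a1 disagreed under quantile normalisation, at 0.36 and -0.26, with a median of 0.05, which is below Gapdh. Actb, which encodes beta-actin, had 974 and 924 (-0.08, but 0.12 with median scaling or the deposited values), and the ratio of Gapdh to Actb was 1.26-fold higher in Rosa26-Foxm1 lung. Hprt was at 0.36, B2m, which is also induced by interferon, at 0.49, Ppia at 0.04 and Ywhaz at -0.37 (-0.04 as the median over its probes). Scaling to 6 of these genes (Actb, B2m, Hprt, Ppia, Tbp and Ywhaz) moved the median of all measured genes from -0.06 to -0.34. It moved the median of the glycolytic enzymes to -0.26, and it left Hk2 and Gapdh as the members above 0. Small positive differences turned negative with it, among them those of Aldoa, Pfkp (-0.22) and Slc2a1 (-0.23).

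**Figure D2:**
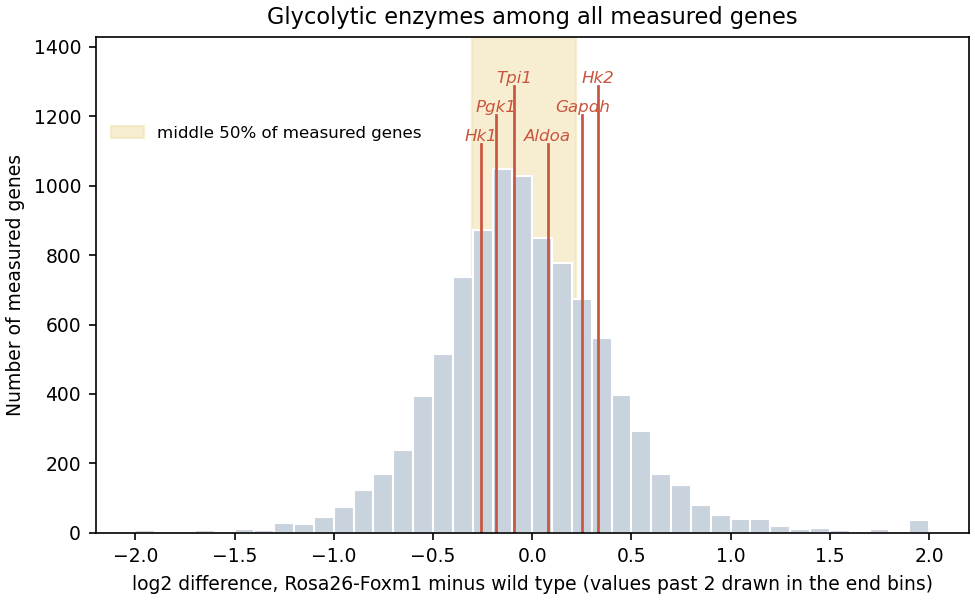
Number of measured genes by log2 difference, Rosa26-Foxm1 minus wild type, over 9518 genes, with the 6 glycolytic enzymes as vertical lines and the middle 50% of all measured genes shaded. Hk1, Pgk1, Tpi1 and Aldoa fall inside the shaded range of -0.30 to 0.22, and Gapdh and Hk2 to the right of it.

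The other genes of the same steps were taken from a list of 16 isoforms and steps, of which 9 were measured, 3 were below the floor on both arrays (Gapdhs, Pgk2 and Pklr) and 4 had no probe. Their median was 0.16, or -0.19 with scaling to reference genes, and past 1.5-fold stood 3 upward and 1 downward. Hkdc1, a hexokinase domain protein, was 1.52-fold higher (13.3 against 20.2). Aldoc, the brain form of aldolase, was 1.62-fold higher (5.15 against 8.35). Eno2, the neuronal form of enolase, was below the floor in the wild-type pool and at 1.84 in the other, at least 1.84-fold higher. Pfkm, the muscle form of phosphofructokinase, was 2.11-fold lower at 2.96 and 1.40, while its platelet form Pfkp differed by 0.11. Hkdc1 and Aldoc were under 1.5-fold with scaling to reference genes, at 0.31 and 0.35. Pgam1, the mutase after Pgk1, was at 0.25 (64.7 against 77.1). Eno3, the muscle form of enolase, was at -0.42 (45.7 against 34.2). Dim probes such as those of Pfkm and Eno2 have the wider error, a probe SD of 0.37 for dimmer pairs with the floor and 0.61 with no floor.

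**Figure D3:**
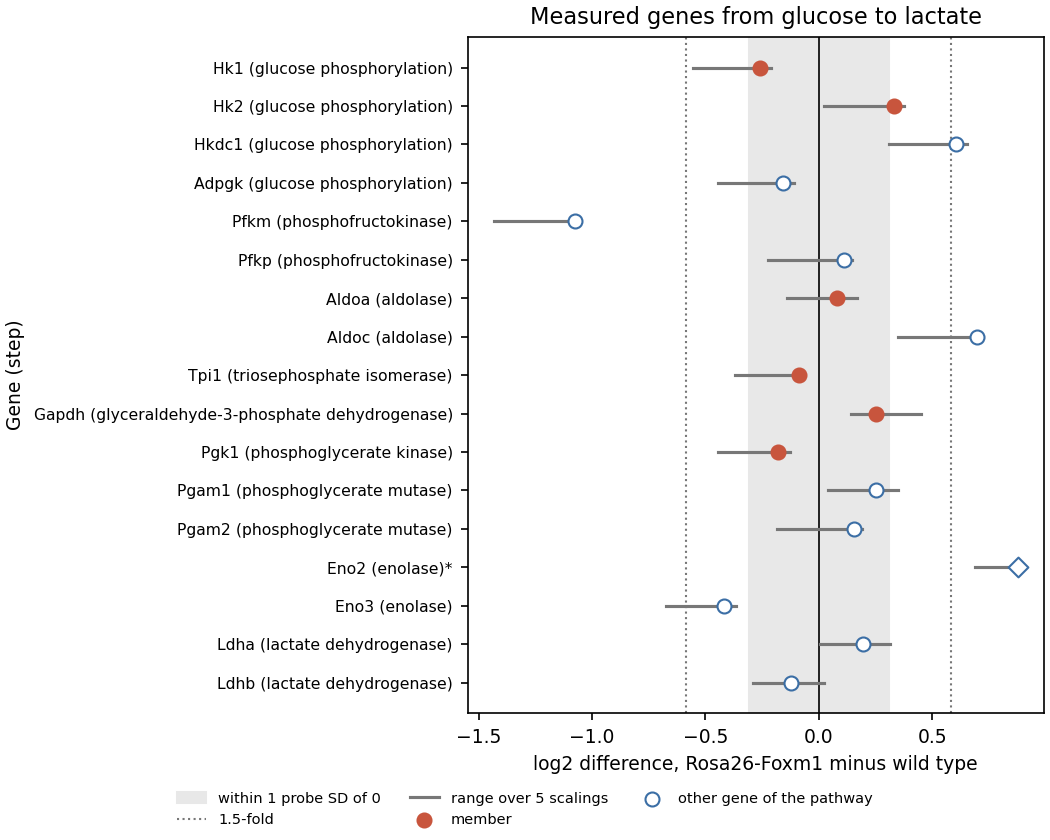
The log2 difference, Rosa26-Foxm1 minus wild type, of every measured gene from glucose phosphorylation to lactate dehydrogenase, with members filled, other genes open, and lines for the range over 5 scalings; the diamond with an asterisk (Eno2) is a lower bound. Filled points all lie between the dotted 1.5-fold lines, and Pfkm, Hkdc1, Aldoc and Eno2 lie outside them.

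Counting lactate dehydrogenase as the last step, 17 of 30 genes from glucose to lactate were measured, in 9 of 11 steps, with 10 above 0 and 7 below. Their median was 0.11. Lactate dehydrogenase interconverts pyruvate and lactate. Its A subunit gene Ldha was at 0.19 (114 against 131) and its B subunit gene Ldhb at -0.12 (169 against 155), or 0.02 with median scaling. The list of lactate and pyruvate export had 5 measured genes and a median of -0.07. It holds Ldha and Ldhb themselves, besides Slc16a1, Slc16a3 and Bsg. The lowest was the monocarboxylate transporter Slc16a1, which lay below the floor in the transgenic pool and was at least 1.32-fold lower, and at -0.72, past 1.5-fold, with no floor; the others were within 1.5-fold.

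Glucose transporters feed the hexokinases. The 9 measured had a median of -0.22. Slc2a3, or GLUT3, was below the floor in the wild-type pool, with a bound of 0.21 and a value of 1.15 with no floor. Slc2a1, the common transporter GLUT1, was at 0.13 (2.14 against 2.33). Slc5a1, a sodium-coupled transporter of epithelia, was 2.17-fold higher (1.56 against 3.40) and Slc2a4, the insulin-responsive transporter, 1.53-fold lower (2.44 against 1.59), all of them close to the floor. Downstream of the members, pyruvate enters mitochondria through pyruvate dehydrogenase. The 8 measured genes of that complex and its kinases had a median of -0.15, with Pdha1, its E1 alpha subunit, 1.62-fold lower (14.1 against 8.68) and the kinase Pdk3 highest at 0.15. The 15 measured genes of the tricarboxylic acid cycle had a median of 0.03, from -0.65 for Dlst, past 1.5-fold, to 0.34 for Mdh2.

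Side routes meet the members at several points. Of the enzymes that set fructose 2,6-bisphosphate, the activator of phosphofructokinase, 3 were measured, with a median of -0.18 and Pfkfb3, the lowest, at least 1.28-fold lower (Rosa26-Foxm1 under the floor) and Tigar highest at -0.04. The 7 measured gluconeogenic genes had a median of 0.18, or -0.17 with scaling to reference genes. Fructose bisphosphatases, which oppose phosphofructokinase, were higher, Fbp1 by 1.64-fold (1.87 against 3.07) and Fbp2 by 1.63-fold (7.08 against 11.5), though under 1.5-fold with scaling to reference genes (0.35 and 0.38). Pck1, which makes phosphoenolpyruvate, was at least 2.40-fold lower (2.40, then under the floor). The pentose phosphate pathway, which branches off after hexokinase, had a median of -0.01 over 5 genes, from H6pd at -0.56 to Pgls at 0.52. Of 13 measured genes of glycogen metabolism, 10 were below 0 with a median of -0.16. Gbe1, the branching enzyme, was 1.81-fold lower (2.44 against 1.35). Phka1 was highest, at a bound of 0.38 with wild type under the floor, and at 1.58 with no floor. Glycerol and other side branches had a median of 0.08 over 8 genes, with Aldh2 1.63-fold lower (272 against 167, but under 1.5-fold at -0.55 with median scaling or the deposited values) and Psat1, of serine synthesis, at 0.53. The 2 probes of Psat1 disagreed: the dimmer was at -0.28, and their median was 0.13. Gfpt1, in the same list, had a bound of 0.18 with wild type under the floor, and 0.88 with no floor.

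Genes that hypoxia is known to induce alongside the members had a median of -0.07 over 22 measured genes, and 2 of them passed 1.5-fold, both downward. These were Lox, a collagen crosslinking enzyme, at -0.87 and Vegfa, the endothelial growth factor, at -0.74, and Car9 was at 0.30. The values of Car12, Pfkfb3 and Egln3 are bounds, at 0.11, -0.36 and -0.09, and were 1.93, -1.60 and -1.20 with no floor. The list shares genes with those above, among them Ldha, Slc2a1, Pdk1, Pfkfb3 and Pfkfb4. Among 7 measured hypoxia response factors, the median was -0.15. Epas1 was 2.14-fold lower (72.2 against 33.7), Arnt 1.63-fold lower (3.35 against 2.06) and Arnt2 3.29-fold higher (1.95 against 6.43). No probe of the annotation used here carried Hif1a. Epas1 is abundant in endothelium, and 11 of 11 measured endothelial markers, of 12 listed, were below 0, with a median of -0.65 and summed intensities of 2255 and 1476; Egfl7 (0.04) and Ramp2 (0.03) turned positive under median scaling. The part of these cells in the Epas1 value was not tested. In whole lung, fewer cells of a type and less RNA per cell cannot be told apart. Of 13 measured factors and kinases known to act on glycolytic genes, Myc was past 1.5-fold (1.57-fold higher, 5.25 against 8.22, but 0.30 on the log2 scale with scaling to reference genes), Akt1 was at -0.53, Mycn at a bound of -0.37 (-0.85 with no floor), and the median was -0.20.

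**Figure D4:**
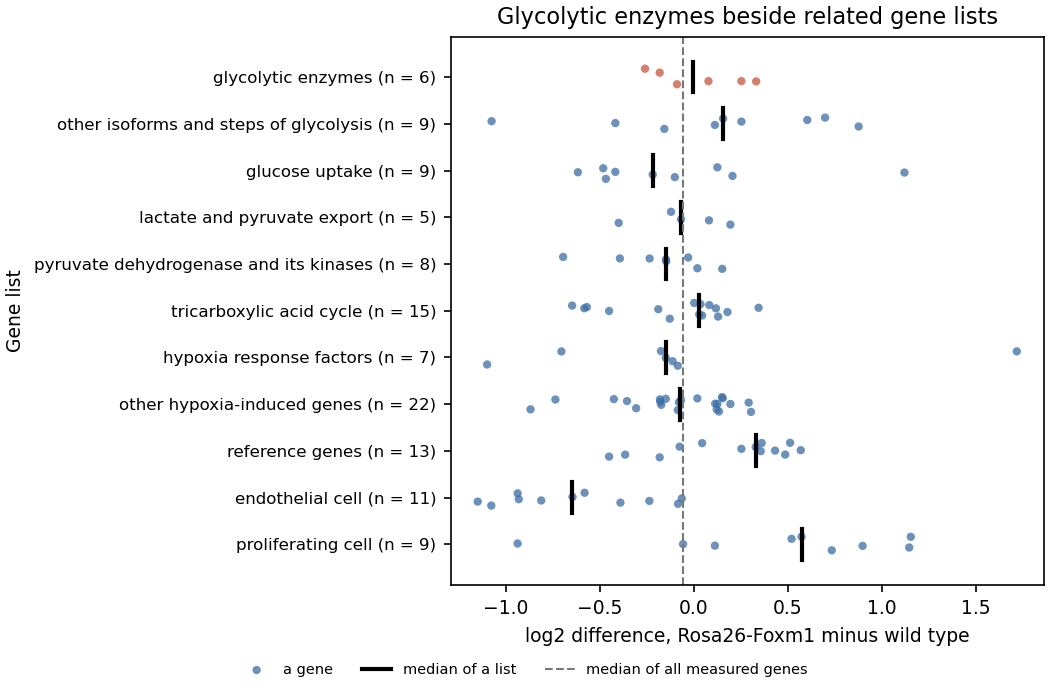
The log2 difference, Rosa26-Foxm1 minus wild type, of each measured gene (points) and the median (bars) of the glycolytic enzymes and 10 related lists; genes below the floor on 1 array are drawn at their bound, and the dashed line is the median of all measured genes, -0.06. The 6 glycolytic enzymes span -0.26 to 0.33 around the dashed line, while endothelial markers centre at -0.65 and proliferation markers at 0.57.

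Cell types that differ in glucose use were checked by their markers. Of 9 measured proliferation markers, of 12 listed, 4 passed 1.5-fold upward and 1 downward, and the median was 0.57. Raising the floor to the 75th percentile left only Birc5 and Ube2c measured, on opposite sides of 0, with a median of -0.33. That value therefore says little about the list. With scaling to reference genes the median of the 9 was 0.22, and Ccnb2 (0.38) and Bub1 (0.56) were under 1.5-fold. Birc5, which encodes survivin, and the kinase Aurka were highest, at 1.15, and Ube2c was lowest at -0.94. Of 11 measured macrophage markers, of 14 listed, 5 were above 0 and 6 below, 4 of the former and 2 of the latter past 1.5-fold, with a median of -0.36, and Gpnmb was at 4.42. The 12 measured markers of striated muscle, of 17 listed, had a median of -0.03, 6 on either side of 0, with 1 past 1.5-fold upward and 3 downward, and erythroid and platelet markers had a median of 0.27 over 5. Summed intensities were 1641 and 878 for proliferation, a sum that Ube2c dominates (1619 against 846), 1161 and 1059 for macrophages and 814 and 557 for muscle. Lyz2, which lay below 0, makes up most of the macrophage sum (1049 against 735), whereas Gpnmb was at 5.86 against 125. Most of the muscle sum is Myh6 (376 against 193) and Actc1 (323 against 260). Neutrophil markers had a median of -0.55 over 9 genes, alveolar type II markers of -0.31 over 8 and club cell markers of 0.04 over 7. How far any of these lists moved with Hk2 or Gapdh was not tested, as 2 arrays allow no correlation.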

How the data were processed

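RNA of 2 lung pools was measured on 2 one-colour arrays, with digoxigenin-labelled cRNA and chemiluminescent detection per the labels' protocols. The authors deposited linear probe intensities with a median of 1.00 on each array, scaled in a way not given in the sources used here. The platform annotation gave probe names, with symbols replaced by the RefSeq ones (GRCm38.p6) of the same gene ID: 14411 had 1 gene, 247 several and 18354 none in that table. Intensities were quantile normalised on the log2 scale and floored at the 50th percentile, and a gene took its probe with the highest mean (numpy 2.4.6, pandas 2.3.3). Other scalings tried were median scaling, none (the deposited values), loess (statsmodels 0.14.6, span 0.3) and 6 reference genes; other floors were the 25th or 75th percentile or no floor; other gene values were the median or the lowest probe. The functions were tested on simulated data. Members and lists were chosen with earlier results of these data known. The text names all 10 members, and in each pathway list its highest and lowest gene and any past 1.5-fold, plus genes singled out after their values were seen. Arrays are 1 per group, so precision is limited by their number and no p-value is given. Protein sequences were not used here.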

Additional observations from a re-analysis of the deposited data

How the results depend on the processing

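The directions of Hk1, Hk2, Tpi1, Gapdh and Pgk1 held under median scaling, the deposited values, loess and scaling to reference genes. Median scaling and the deposited values gave nearly the same differences. The other floors and probe rules are no check on the members, by construction. Each member had 1 probe, above the floor on both arrays. The floor at the 25th percentile, no floor and both other probe rules therefore returned the reported value. With the floor at the 75th percentile Tpi1 was not measured and the others kept their value. Aldoa turned from 0.08 to -0.14 with scaling to reference genes. None of the members passed 1.5-fold under any of the 9 alternatives. All 53 alternative values of single members lay within 0.31, the probe SD, of the reported ones, but only those of the other scalings could differ. The median over the 6 members was -0.01 as reported, 0.03 with median scaling or the deposited values, 0.02 with loess, 0.08 with the floor at the 75th percentile (5 members) and -0.26 with scaling to reference genes, where the median of all genes was -0.34. The number of members above 0 was 3, or 2 with scaling to reference genes. All 22 other list medians moved with that scaling, by at least the probe SD divided by the square root of their gene count. Positive medians that turned negative were those of other isoforms (-0.19), gluconeogenesis (-0.17), the tricarboxylic acid cycle (-0.23) and side branches (-0.23). So did those of erythroid and platelet (-0.06) and club cell markers (-0.28, and -0.23 with loess). Without a floor the probe SD was 0.46 in place of 0.31. It was 0.61 in place of 0.37 for dimmer pairs, and 0.23 for brighter pairs in both. No paired analysis was possible because each group has 1 array, and for the same reason no replicate could be left out. Signal limits Tpi1, which lay just over the floor.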
